A study of Mus musculus with 10 samples.

Results

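The genes examined here encode proteins that build ribosomes in the nucleolus. They are 42 mouse genes listed by function, and they were found by their GENCODE symbol among the 18381 genes of the deposited table. All 42 were present, and all 42 were among the 14504 genes that passed the filter on low counts. The samples were first lower molars of wild type C57BL/6JOlaHsd mouse embryos at embryonic day 14 (E14), kept in hanging drop culture for 6 h. From each of 5 embryos, numbered 1, 2, 3, 4 and 6, a tooth received mouse recombinant insulin-like growth factor 1 (IGF1) at 750 ng/ml and the other tooth received the same volume of vehicle, PBS with 0.1% BSA, so that there were 5 IGF1 and 5 control teeth. Each tooth was a library of its own, left and right sides were balanced over the treatments, and no library pooled animals. Control teeth were cultured for the same time as IGF1 teeth. The comparison asks which transcripts differ after 6 h of IGF1 in an organ rudiment that holds dental epithelium, dental mesenchyme and the vessels and blood within it.

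A ribosome starts in the nucleolus, where RNA polymerase I copies the ribosomal RNA genes into a long precursor. Small nucleolar ribonucleoproteins (snoRNPs) modify that precursor, and successive assembly factors fold it, cut it and join it to ribosomal proteins until the small (40S) and large (60S) subunits leave the nucleus. Growth factors that act through Akt and mTOR, IGF1 among them, are known to promote ribosome production in growing cells. The E14 molar is at the cap stage, a time of rapid growth.

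Read depth and sample identity were as follows. Total counts ran from 2845773 to 8403151 in control teeth and from 3456634 to 8763113 in IGF1 teeth, with embryo 1 lowest in both groups. Counts of single members in single teeth ran from 26 for Gar1 to 5895 for Npm1. Markers of the labelled tissue were present in every tooth, with Epcam of the epithelium at 83.3 to 145 CPM (a gene's counts scaled to the normalized total of its library), Msx1 of the dental mesenchyme at 214 to 305 CPM and Pax9, also mesenchymal, at 185 to 289 CPM.

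Start site sequences are shown for 5 members, because the results turn on them or because they carry sequence features that the choice of members did not use. Nolc1 and Nop10 rose with IGF1, Gar1 had the largest fitted decrease, and Grwd1 and Rrn3 hold both of the motifs marked below, which were commoner among the members than among all promoters. Each window holds 250 bases before and 50 bases after the start, 5′ to 3′ on the strand of the gene, from RefSeq on GRCm38.p6. Capitals mark CACGTG (an E-box, the site read by Myc and related factors) and CCGGAAGT or its reverse complement (a site of ETS family factors).
Nolc1, chr19:46075597-46075896, plus strand: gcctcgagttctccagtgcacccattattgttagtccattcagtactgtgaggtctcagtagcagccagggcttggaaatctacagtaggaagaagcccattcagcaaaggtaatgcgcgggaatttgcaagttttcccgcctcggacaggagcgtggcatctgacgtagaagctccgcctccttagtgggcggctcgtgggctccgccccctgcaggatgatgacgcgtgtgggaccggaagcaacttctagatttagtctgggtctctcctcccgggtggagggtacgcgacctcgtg
Nop10, chr2:112261676-112261975, plus strand: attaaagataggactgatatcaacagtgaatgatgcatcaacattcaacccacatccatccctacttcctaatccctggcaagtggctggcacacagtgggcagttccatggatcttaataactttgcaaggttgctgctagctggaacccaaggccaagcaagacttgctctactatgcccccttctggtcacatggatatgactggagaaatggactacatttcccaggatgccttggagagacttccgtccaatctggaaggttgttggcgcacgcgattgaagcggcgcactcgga
Gar1, chr3:129831347-129831646, minus strand: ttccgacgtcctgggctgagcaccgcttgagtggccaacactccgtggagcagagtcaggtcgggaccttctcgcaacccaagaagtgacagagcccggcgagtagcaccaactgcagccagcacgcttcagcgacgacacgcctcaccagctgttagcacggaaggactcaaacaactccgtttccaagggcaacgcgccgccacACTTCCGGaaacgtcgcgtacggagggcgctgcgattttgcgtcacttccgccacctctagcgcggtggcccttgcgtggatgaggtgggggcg
Grwd1, chr7:45830740-45831039, minus strand: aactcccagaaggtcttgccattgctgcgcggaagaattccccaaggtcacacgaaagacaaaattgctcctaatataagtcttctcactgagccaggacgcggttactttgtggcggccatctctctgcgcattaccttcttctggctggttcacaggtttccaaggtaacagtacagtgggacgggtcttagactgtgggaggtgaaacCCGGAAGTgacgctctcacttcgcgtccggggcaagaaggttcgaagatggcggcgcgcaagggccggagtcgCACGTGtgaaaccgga
Rrn3, chr16:13780449-13780748, plus strand: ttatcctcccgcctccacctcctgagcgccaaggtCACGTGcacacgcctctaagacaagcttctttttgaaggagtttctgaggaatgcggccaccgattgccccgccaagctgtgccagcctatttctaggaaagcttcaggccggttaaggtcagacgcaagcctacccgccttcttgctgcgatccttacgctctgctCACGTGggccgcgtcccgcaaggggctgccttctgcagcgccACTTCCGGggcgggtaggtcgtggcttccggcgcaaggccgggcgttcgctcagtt

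Neither motif stood in the windows of Nolc1 and Nop10. In Gar1 the ETS motif began 44 bases before the start. In Grwd1 the ETS motif began 39 bases before the start and the E-box 34 bases after it. Rrn3 held E-boxes 215 and 48 bases before the start and an ETS motif 6 bases before it.

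A RefSeq promoter was matched for 37 of the 42 members, and none was matched for Fbl, Rrs1, Bop1, Rrp12 and Npm1. A match is a description of the letters in the window and not a measured binding site. Of the 37, 9 held the E-box (24.3%), against 8.09% of 27025 genes with a promoter and 11.3% of the 10717 of these that were tested for expression. The 9 were Grwd1, Ltv1, Mybbp1a, Nop2, Pes1, Rrn3, Tsr1, Utp20 and Wdr43. The ETS motif was found in 11 (29.7%), against 4.31% of all promoters and 8.53% of those of tested genes, in Ebna1bp2, Gar1, Grwd1, Heatr1, Ltv1, Nhp2, Nip7, Noc2l, Polr1c, Rrn3 and Tsr1. Both strands were searched, motifs were counted whether or not they shared bases with another motif, and 4 members held both. The other 3 sequences searched were not commoner among the members than among the tested genes. GCGCATGC (a site of NRF1) stood in 2 members (5.41%, tested genes 5.75%, all promoters 3.05%), AAGATGGC (a site of YY1) in 1 (2.7%, tested genes 4.94%) and the TATA box TATAAA in 2 (5.41%, tested genes 9.35%). In 18 members none of the 5 was found. The median GC content of the windows was 59.7% in the members, 60.7% in tested genes and 52.7% in all promoters. Restricting the search to the 100 bases before the start left the E-box in 2 members (5.41%, tested genes 5.27%) and the ETS motif in 6 (16.2%, tested genes 4.81%). The fitted IGF1 change did not separate by motif. The median log2 fold change was 0.08 in the 9 members with the E-box and 0.08 in the 28 without it, and 0.09 in the 11 with the ETS motif against 0.08 in the 26 without it. No member holding either motif was called, but of the called members only Nolc1 and Nop10 had a matched promoter. Either motif stood in 16 members, and 11.5% of all genes tested were called. So few calls were to be found among 16 that this count decides nothing about the motifs.

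With IGF1, 3 of the 42 members rose and none fell. These were Fbl, the methyltransferase of the C/D box snoRNPs, Nop10, a small subunit of the H/ACA snoRNPs, and Nolc1, a chaperone that carries snoRNPs to the nucleolus. Each changed by less than 1.5-fold, and no member was called without embryo 1, 2, 4 or 6 or without the embryo block. A gene was called at an adjusted p-value under 0.05 in edgeR's quasi-likelihood test with embryo as a block and Benjamini-Hochberg adjustment over all 14504 genes. The 3 calls are 7.14% of the members, and 6.72% of all genes tested were called higher, so the share of members called was near the background. No member was called lower, where 4.76% of all genes were. At an unadjusted p under 0.05 there were 8 members, Fbl, Nop10, Nolc1, Nop56, Ddx21 and Bysl with higher and Gar1 and Nob1 with lower fitted values. These are 19% of the members, and 26.5% of all genes tested had such a p.

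Over the 42 members the median log2 fold change was 0.08, against -0.0038 over all genes tested, and 32 members (76.2%) had a fitted value above 0, as did 49.4% of all genes tested. Among 149 other tested genes of ribosome production, described below, 52.35% had a fitted value above 0. The median was 0.017 without embryo 6, and the IGF1 tooth was the higher for 11 members in embryo 3 and 35 in embryo 6. In all 5 embryos the IGF1 tooth was higher for 5 members (Nop10, Nolc1, Ncl, Gnl3 and Ddx21), where 13% of all genes tested showed this, and lower for 2 members (Gar1 and Nob1), where 11.2% of all genes did. For no member did the 5 IGF1 teeth lie entirely above or below the 5 control teeth, which 4.21% and 3.03% of all genes tested did. The 95% interval of the fold change lay within 1.5-fold in either direction for 39 of the 42 members, compared with 66.5% of all genes tested. The exceptions were Gar1, Rrp12 and Bysl. Among the 149 other genes of ribosome production 137 (91.9%) had such an interval, so this was not particular to the members. The values are levels relative to the other transcripts of the library, and in whole teeth fewer cells of a type and less RNA per cell cannot be told apart.

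**Figure D1:**
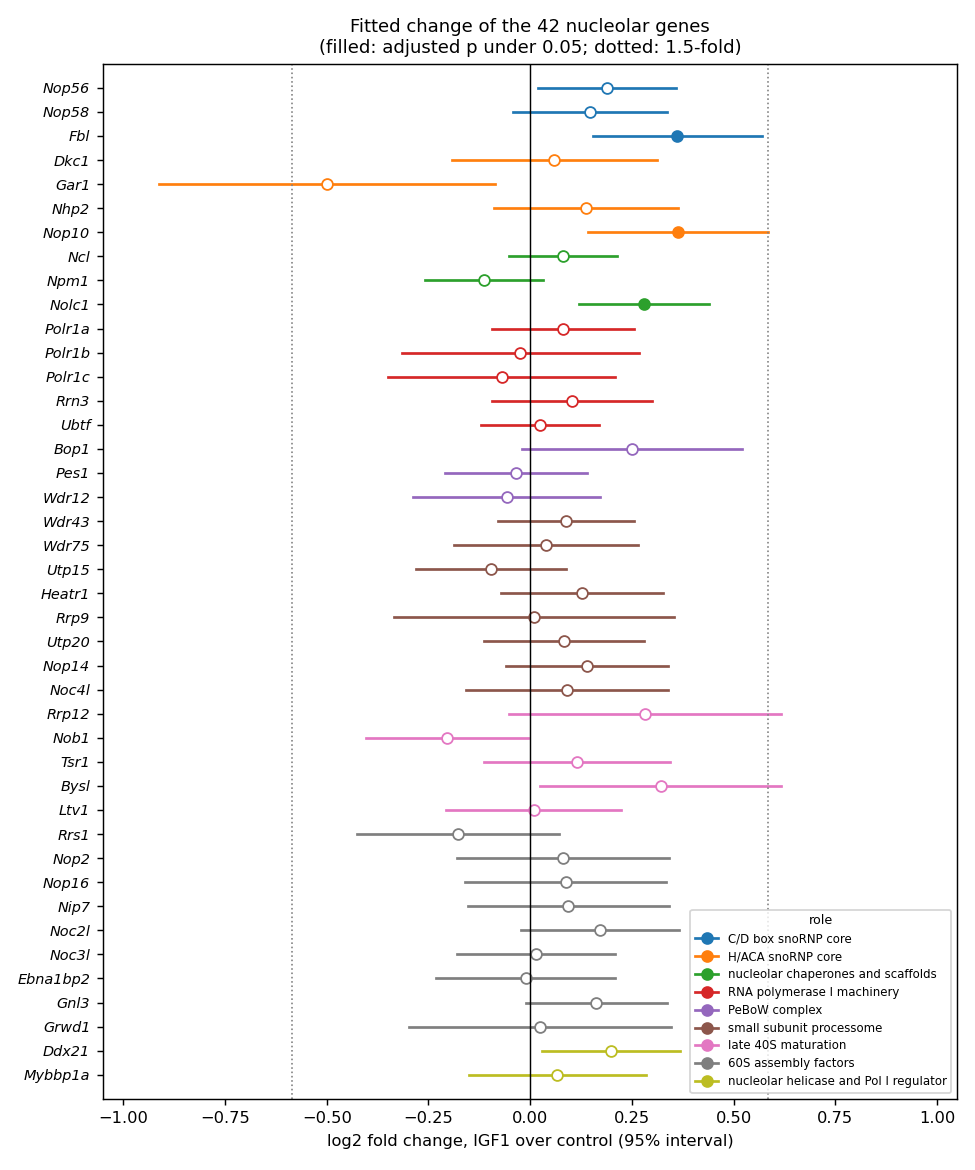
Log2 fold change of each of the 42 genes, IGF1 over control, with its 95% interval from edgeR's quasi-likelihood fit with embryo as a block, coloured by role. Filled points mark adjusted p under 0.05 (Fbl, Nop10 and Nolc1), dotted lines mark 1.5-fold, and only the intervals of Gar1, Rrp12 and Bysl reach past them.

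The C/D box snoRNPs place methyl groups on ribosomal RNA, and their core was represented by the methyltransferase Fbl (fibrillarin) and the scaffold proteins Nop56 and Nop58. Fbl stood at 71.5, 53.8, 65.9, 72.1 and 67.8 CPM in the control teeth of embryos 1, 2, 3, 4 and 6. In the IGF1 teeth it stood, in the same order, at 105, 69.7, 64.5, 91.3 and 102 CPM. It was higher with IGF1 in 4 of 5 embryos and nearly level in embryo 3, and the groups overlapped because the IGF1 teeth of embryos 2 and 3 lay within the control range. The fitted change was 1.29-fold (95% interval 1.11 to 1.48, log2 0.36, SE 0.094, adjusted p = 0.0317, edgeR). The adjusted p was 0.108, 0.07, 0.0885 and 0.123 without embryos 1, 2, 4 and 6, and 0.00789 without embryo 3. Without the embryo block it was 0.14. Nop56 (log2 0.19, SE 0.077, adjusted p = 0.145) and Nop58 (log2 0.15, SE 0.086, adjusted p = 0.31) were both higher in 4 of 5 embryos and were not called by edgeR. The log2 fold change of Nop58 was 0.078 without embryo 4 and 0.21 without embryo 2.

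The H/ACA snoRNPs convert uridine to pseudouridine. Their 4 core proteins are the synthase Dkc1 (dyskerin) with Gar1, Nhp2 and Nop10, and here Nop10 and Gar1 had fitted values of opposite sign. Nop10 stood at 23.0, 26.0, 26.2, 29.5 and 27.1 CPM in control teeth and at 33.1, 31.7, 27.4, 39.1 and 40.4 CPM in IGF1 teeth. It was higher with IGF1 in 5 of 5 embryos, by the least in embryo 3, whose IGF1 tooth alone fell within the control range. The fitted change was 1.29-fold (95% interval log2 0.14 to 0.58, estimate 0.36, SE 0.10, adjusted p = 0.0401, edgeR). The adjusted p was 0.109, 0.0773, 0.119 and 0.15 without embryos 1, 2, 4 and 6, 0.0199 without embryo 3, 0.0943 without the embryo block, 0.0574 with upper quartile factors and 0.172 by the DESeq2 Wald test.

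Gar1 had the lowest mean CPM of the members in control teeth and had the largest fitted change of all 42 in either direction, without being called. It stood at 14.1, 6.14, 5.91, 8.23 and 6.66 CPM in control teeth and at 7.49, 5.35, 3.44, 6.49 and 5.28 CPM in IGF1 teeth, lower in 5 of 5 embryos. The groups overlapped, and the control tooth of embryo 1, from the shallowest library, stood far above the rest. These levels rest on 26 to 58 counts a tooth. The log2 fold change was -0.50 (SE 0.19, 95% interval -0.91 to -0.09, adjusted p = 0.115, edgeR), and -0.41 without embryo 1. It passed the threshold (adjusted p = 0.0477) in 1 of 14 alternatives, the one that removed trends with GC content and gene length. Dkc1 (log2 0.06, SE 0.11) and Nhp2 (log2 0.14, SE 0.10) were not called.

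Of the nucleolar chaperones and scaffolds, Nolc1 rose, while nucleolin (Ncl) and nucleophosmin (Npm1), the most abundant members, were not called. Nolc1 stood at 60.5, 55.2, 57.6, 72.8 and 74.4 CPM in control teeth and at 79.8, 63.8, 67.7, 82.7 and 97.6 CPM in IGF1 teeth. The IGF1 tooth was the higher in 5 of 5 embryos, and the groups overlapped since embryos differed in level, with 4 and 6 highest among the control teeth. The fitted change was 1.21-fold (95% interval 1.09 to 1.36, log2 0.28, SE 0.072, adjusted p = 0.0297, edgeR). Leaving out any 1 embryo ended the call, with adjusted p from 0.0534 (without embryo 2) to 0.12 (without embryo 6), 0.103, 0.0541 and 0.0639 without embryos 1, 3 and 4, and it was 0.233 without the embryo block and 0.1 by the DESeq2 Wald test.

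Ncl, which binds the ribosomal RNA precursor, stood at 492, 480, 459, 472 and 553 CPM in control teeth and at 498, 517, 495, 506 and 578 CPM in IGF1 teeth. It was higher with IGF1 in 5 of 5 embryos by small steps, and the log2 fold change of 0.08 (SE 0.060, adjusted p = 0.434, edgeR) was not called. Npm1, a histone chaperone that also moves ribosomal subunits, stood at 727, 707, 639, 614 and 761 CPM in control teeth and at 634, 701, 640, 545 and 665 CPM in IGF1 teeth. It was lower in 4 of 5 embryos with overlapping groups, and the log2 fold change of -0.11 (SE 0.066, adjusted p = 0.305, edgeR) was not called. Both intervals are narrow, with -0.05 to 0.21 for Ncl and -0.26 to 0.03 for Npm1 on the log2 scale.

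**Figure D2:**
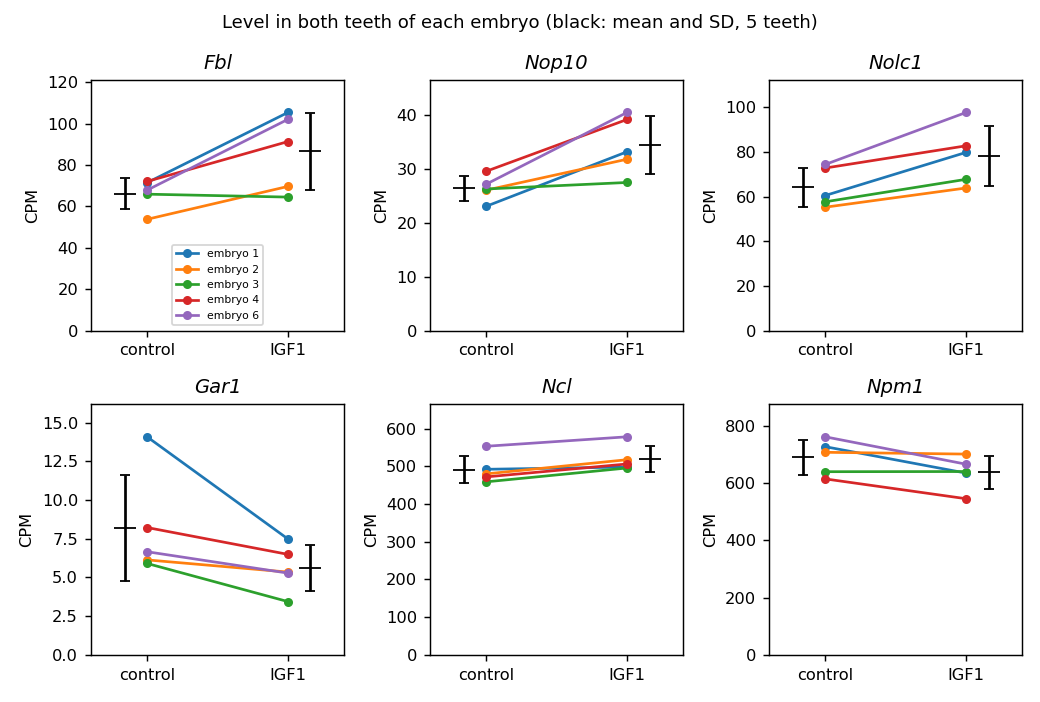
Level of 6 members in CPM (linear axes from 0) in both teeth of each embryo, with a line joining the teeth of an embryo and black bars for the mean and SD of 5 teeth. The lines of Nop10 and Nolc1 all slope up, those of Gar1 all slope down, and Fbl slopes up in 4 embryos and is nearly level in embryo 3.

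RNA polymerase I and its initiation factors showed no call. The 5 members were the catalytic subunits Polr1a and Polr1b, Polr1c (a subunit shared with RNA polymerase III), the initiation factor Rrn3 and Ubtf, which keeps the ribosomal RNA genes open. Their log2 fold changes ran from -0.07 (Polr1c) to 0.10 (Rrn3) with a median of 0.024, and the interval of each lay within 1.5-fold. Ubtf had one of the tighter estimates, 0.02 with an SE of 0.066.

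The PeBoW complex, needed for the large subunit RNA, consists of Pes1, Bop1 and Wdr12, and none of them was called. Bop1 had a log2 fold change of 0.25 (SE 0.12, adjusted p = 0.225, edgeR), Pes1 of -0.03 (SE 0.079) and Wdr12 of -0.06 (SE 0.10). Members of the same complex thus had fitted values on both sides of 0, none beyond its error after adjustment.

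The small subunit processome assembles on the newly made precursor. Its 8 members were Wdr43, Wdr75, Utp15 and Heatr1, which bind the precursor early, the U3 snoRNP protein Rrp9, the large scaffold Utp20, and the partners Nop14 and Noc4l. None was called, 7 of 8 had a fitted value above 0, and the log2 fold changes ran from -0.10 (Utp15) to 0.14 (Nop14) with a median of 0.09. Of 50 other genes of the processome and the 40S subunit 21 (42%) were above 0, with a median of -0.024. For the 8 members the medians with an embryo left out were as follows. The median was 0.059 without embryo 1 and 0.15 without embryo 3. Rrp9, lowest of all members in level per kb of merged exons, stood at 12.4, 7.45, 10.04, 10.4 and 10.5 CPM in control teeth and at 12.1, 8.32, 7.35, 10.7 and 13.0 CPM in IGF1 teeth. It was higher with IGF1 in 3 of 5 embryos, the groups overlapped nearly completely, and its log2 fold change was 0.0095 (SE 0.16).

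Late maturation of the 40S subunit was represented by Rrp12 (export), Nob1 (the nuclease of the last cut of the small subunit RNA), Tsr1, Bysl (bystin) and Ltv1. None was called, and the median was 0.12. It was 0.20 without embryo 3 and 0.055 without embryo 4. Bysl had the second largest absolute change among the members that were not called, a log2 fold change of 0.32 (SE 0.13, 95% interval 0.02 to 0.62, adjusted p = 0.155, edgeR), and was higher in 4 of 5 embryos. It stood at 16.5, 11.98, 17.5, 21.7 and 19.8 CPM in control teeth and at 23.3, 14.7, 15.4, 27.4 and 31.8 CPM in IGF1 teeth. Embryo 3 was the exception, and without embryo 3 the adjusted p was 0.0431 (edgeR). Without embryo 1, 2, 4 or 6 it was 0.236 to 0.443 (edgeR), and the log2 fold change without embryo 6 was 0.22. Nob1 was lower in 5 of 5 embryos with a log2 fold change of -0.20 (SE 0.090, adjusted p = 0.177, edgeR). Rrp12 had 0.28 (SE 0.15), Tsr1 0.12 (SE 0.10) and Ltv1 0.0086 (SE 0.098). With 1 embryo left out Rrp12 ran from 0.096 to 0.38 and Tsr1 from 0.033 to 0.20.

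The 9 factors of 60S assembly were Rrs1, the RNA methyltransferase Nop2, Nop16, Nip7, Noc2l, Noc3l, Ebna1bp2, the GTPase Gnl3 (nucleostemin) and the histone-binding protein Grwd1. None was called. The log2 fold changes ran from -0.18 (Rrs1) to 0.17 (Noc2l) with a median of 0.08, and Gnl3, at 0.16 (SE 0.079, adjusted p = 0.219, edgeR), was higher in 5 of 5 embryos. The median was 0.044 without embryo 4 and 0.11 without embryo 2. With 1 embryo left out Rrs1 ran from -0.25 to -0.098 and Noc2l from 0.098 to 0.26. The remaining members were the helicase Ddx21, with a log2 fold change of 0.20 (SE 0.077, adjusted p = 0.125, edgeR) and higher in 5 of 5 embryos, and Mybbp1a, a regulator of RNA polymerase I, with 0.07 (SE 0.099).

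The embryos differed in how the members moved as a group. On the log2(CPM + 1) scale the median difference between IGF1 and control tooth over the 42 members was 0.18 in embryo 1, -0.013 in embryo 2, -0.13 in embryo 3, 0.09 in embryo 4 and 0.32 in embryo 6. The same median over all genes tested ran from -0.0083 to 0.015. The IGF1 tooth was the higher for 34 members in embryo 1, 20 in embryo 2, 11 in embryo 3, 29 in embryo 4 and 35 in embryo 6, and for 48.9% to 51.9% of all genes tested. The members thus stood mostly higher with IGF1 in embryos 1, 4 and 6, evenly split in embryo 2 and mostly lower in embryo 3. Their summed level was 3345, 3291, 3378, 3505 and 3793 CPM in the control teeth of embryos 1, 2, 3, 4 and 6. In the IGF1 teeth it was 3548, 3378, 3234, 3642 and 4288 CPM. The IGF1 tooth of embryo 6 held the highest sum of the 10 teeth, its partner held the highest of the control teeth, and the groups overlapped. Without embryo 3 the median log2 fold change of the members was 0.13.

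Genes of the low oxygen response moved with IGF1 in these teeth and did so unevenly over the embryos. Of 17 tested hypoxia genes 15 rose (88.2%, against 6.72% of all genes tested) and none fell (4.76% of all genes), with a median log2 fold change of 1.69. Their summed level was 1039 to 1554 CPM in control teeth and 1983 to 6799 CPM in IGF1 teeth. Their median difference was 0.62, 2.73, 2.57, 0.98 and 0.81 in embryos 1, 2, 3, 4 and 6. The embryos with the highest hypoxia medians, 2 and 3, had the lowest medians of the nucleolar genes. This pattern was seen in the data over 5 embryos, and the part of the hypoxia genes in the result was not tested.

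**Figure D3:**
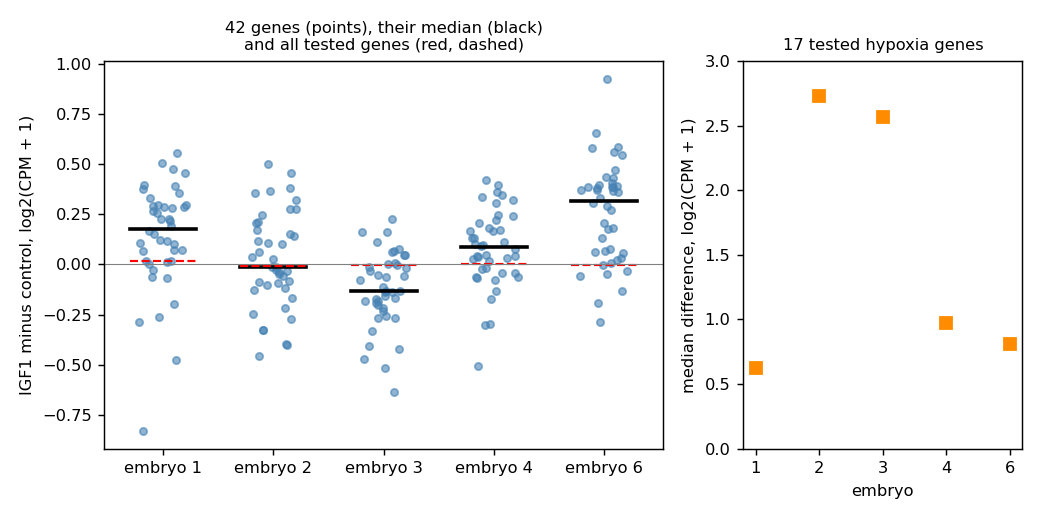
Left, the difference between IGF1 and control tooth in log2(CPM + 1) for the 42 genes (points) in each embryo, with their median (black) and the median of all tested genes (red, dashed). Right, the median difference of 17 tested hypoxia genes in the same embryos. The member medians run from -0.13 in embryo 3 to 0.32 in embryo 6, and the hypoxia medians are highest in embryos 2 and 3.

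Lists of cell type markers and the mitochondrial share of counts were measured beside the members, and their part in the result was not tested. For the counts of calls below, 6.72% of all genes tested were called higher and 4.76% lower. The mitochondrial share was 2.45%, 3.28%, 2.64%, 2.17% and 2.94% in the control teeth of embryos 1, 2, 3, 4 and 6 and 2.51%, 2.09%, 2.07%, 2.05% and 2.17% in the IGF1 teeth, lower with IGF1 in all but embryo 1. Of 6 tested erythroid genes 5 were called lower with IGF1 (median log2 -0.49, none of the 6 above 0), with a summed level of 849 to 1422 CPM in control and 604 to 1109 CPM in IGF1 teeth. Of 8 endothelial genes 2 were called lower (median -0.26, 1 of 8 above 0, 407 to 462 CPM against 323 to 428 CPM), and of 13 mesenchymal genes 2 were called lower (median -0.13, 2 of 13 above 0, 6608 to 8162 CPM against 5766 to 7542 CPM). Of 16 epithelial genes 1 was called higher and 2 lower (median 0.0013, 8 of 16 above 0, 2024 to 2817 CPM against 2186 to 3071 CPM). Of 8 macrophage genes 1 was called lower (median -0.20, 2 of 8 above 0, 69.7 to 98.0 CPM against 64.4 to 91.6 CPM). The macrophage median was -0.064 without embryo 2 and -0.30 without embryo 3. Among muscle genes none of 4 was called (31.8 to 114 CPM against 20.0 to 158 CPM), and Myog was listed at 0 in some teeth. Of 8 Schwann cell and neuron markers only 2 passed the filter, 1 of them called higher (20.4 to 26.8 CPM against 19.9 to 35.1 CPM), and those listed at 0 in some teeth included Sox10, Fabp7 and Foxd3. Of 12 genes of the early response to growth factors none was called higher and 2 lower, Egr1 and Myc (median -0.26, 1 of 12 above 0). The summed level of the 12 did not overlap between groups, with 293 to 349 CPM in control and 240 to 282 CPM in IGF1 teeth. Singly, 2 of the 12 had the 5 IGF1 teeth all below the 5 control teeth, which 3.03% of all genes tested did. Myc, a transcription factor that activates many nucleolar genes, had a log2 fold change of -0.55 (adjusted p = 0.00389, edgeR), at 35.0 to 55.6 CPM in control teeth and 26.4 to 35.0 CPM in IGF1 teeth.

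Other genes of ribosome production were taken from a list of 151, of which 150 were in the table and 149 were tested. Of these 3 rose (2.01%) and 5 fell (3.36%), both below the shares of all genes tested, 6.72% and 4.76%. The median log2 fold change was 0.0076, and 78 of the 149 (52.35%) had a fitted value above 0. By part of the list this share ran from 40% (RNA polymerase I) to 70.97% (snoRNP assembly, exosome and RNase MRP). The genes that rose were Utp14b (0.60, SE 0.098, adjusted p = 0.00297), a processome factor, Mphosph6 (0.67, SE 0.14, adjusted p = 0.011), a cofactor of the nuclear exosome, and Ruvbl2 (0.42, SE 0.10, adjusted p = 0.0205), an ATPase that helps assemble box C/D snoRNPs, all by edgeR. Of 58 tested genes of 60S assembly 4 fell (6.9%, with 31 of the 58 above 0), namely Nop53 (-0.46, SE 0.068, adjusted p = 0.00189), Rpf1 (-0.33, SE 0.082, adjusted p = 0.0244), Las1l (-0.36, SE 0.088, adjusted p = 0.0249) and Nol8 (-0.30, SE 0.080, adjusted p = 0.0346), and the other gene that fell was Znhit6 (-0.41, SE 0.12, adjusted p = 0.0479), which acts in snoRNP assembly, by the same edgeR test. Each of these 8 moved the same way in 5 of 5 embryos. Utp14b, at 68.3 ± 9.30 CPM in control and 104 ± 8.16 CPM in IGF1 teeth (SD, n = 5 each), and Nop53, at 125 ± 8 CPM and 91.2 ± 1.99 CPM, were called in every alternative fit, as was Mphosph6 (adjusted p up to 0.0491). Utp14b shares its strand and span with Acsl3, which rose by 0.67 (SE 0.074, adjusted p = 0.000319, edgeR), and Ruvbl2 overlaps Gys1 on the other strand, which rose by 0.98 (SE 0.17, adjusted p = 0.0049, edgeR), and the part of shared reads was not tested. Ruvbl2 lost its call without embryo 1, 2, 4 or 6 (adjusted p from 0.0573 to 0.065), and Znhit6 lost it without any 1 embryo (0.0512 to 0.124), as did Nol8 (0.0511 to 0.127). Las1l lost it without embryo 1, 2, 3 or 4 (0.0501 to 0.073), and Rpf1 without embryo 1, 2 or 6 (0.0683 to 0.0859). Without the embryo block Rpf1, Las1l, Nol8 and Znhit6 had adjusted p-values of 0.143, 0.132, 0.228 and 0.122.

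Levels between members were compared per length, as CPM per kb of merged exons. Npm1 stood highest, at 259 ± 23.0 in control and 239 ± 21.7 in IGF1 teeth (SD, n = 5 each). Ncl followed at 48.2 ± 3.60 and 50.9 ± 3.35, and Mybbp1a at 35.4 ± 4.63 and 37.4 ± 7.66. Rrp9 stood lowest, at 3.45 ± 0.599 and 3.51 ± 0.823. In control teeth the ranges of Npm1, Ncl and Mybbp1a did not overlap one another in that order. From the fourth member, Noc2l at 32.0 ± 2.56, down to Rrp9 each range overlapped that of the member above. The levels per length of Nop10 (23.8 ± 2.10), Nolc1 (16.1 ± 2.23) and Fbl (15.7 ± 1.76) placed the members that rose 6th, 13th and 14th among the control levels, and Gar1 (4.79 ± 1.99) was 38th. With the longest transcript as the length, Npm1 stayed first at 422, Bysl took the lowest place at 4.54, and the order of the members that rose changed, with Fbl 9th (27.5), Nop10 11th (23.8) and Nolc1 16th (17.6), while Gar1 stayed 38th (6.45).

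**Figure D4:**
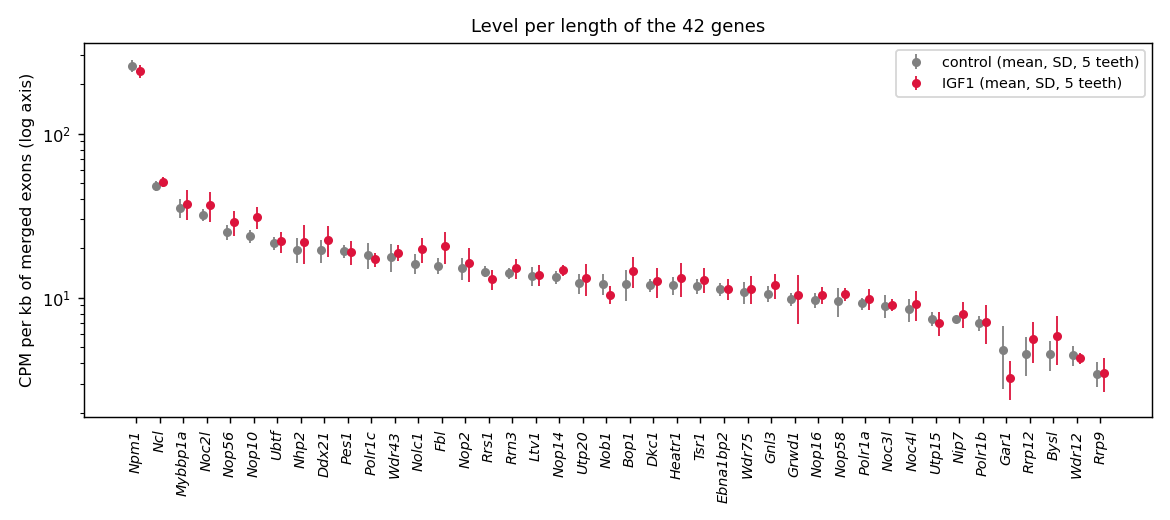
Level of each of the 42 genes in CPM per kb of merged exons (log axis) in control and IGF1 teeth, mean and SD of 5 teeth each, ordered by the control mean. Npm1 stands apart at 259 in control teeth, and the control means of the other members lie between 3.45 and 48.2.

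Some members share sequence or position with other genes, so that estimated counts can divide reads between them. The share of 31-base words of a member's transcripts found also in transcripts of other genes was 34.8% for Pes1, 33.2% for Tsr1, 29.4% for Npm1, 22.4% for Nop56 and 21.8% for Fbl. It was 5.19% for Nop10, 3.33% for Nolc1 and 0.404% for Gar1. The counts of Fbl may therefore be less certain in their assignment than those of Nop10 and Nolc1, which was not tested. Small nucleolar RNA genes lie on the same strand within the spans of Nop58, Ncl, Nop56, Dkc1, Tsr1, Wdr43 and Gnl3, and Bysl overlaps Ccnd3, Bop1 overlaps Mroh1 and Scx, and Tsr1 overlaps Srr on the opposite strand. Strand use in counting is not stated in the sources used here, and reads of such pairs may not be told apart.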

How the data were processed

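RNA of 10 single teeth was sequenced. The authors deposited a table of estimated counts per gene, without normalization, and the submitters' processing notes name FastQC 0.11.8, Trimmomatic 0.39, Salmon 0.99.0, DESeq2 and GRCm38. The transcript set, strand use and the filter on genes (every row sums to at least 10) are not given in the sources used here. All values were whole numbers, so rounding changed none. The paper that accompanies the series does not describe this experiment, and its methods were not used.

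Symbols came from GENCODE mouse release 21, which held 18287 of 18381 identifiers. Counts were tested with edgeR 4.0.16 (R 4.3.3) by the quasi-likelihood test after TMM normalization and filterByExpr, with embryo as a block and Benjamini-Hochberg adjustment over 14504 genes. The block follows the labels, by which the teeth of a pair share an embryo. Deviations from the group means correlated at 0.359, 0.252, -0.0311, 0.211 and 0.349 for the pairs of embryos 1, 2, 3, 4 and 6, and the median over teeth of different embryos was -0.0567. Chi-square per degree of freedom between teeth of a group was 4.52 to 18.2, so each tooth counted as its own sample. The labels do not say whether embryos shared a litter.

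CPM used TMM library sizes, and differences within an embryo are on log2(CPM + 1), which understates changes of low genes. On simulated data of this comparison (3 simulations, 14326 genes, 200 of them changed by a log2 of 1) 80.5% to 85.5% of changed genes were recovered and 8.11% to 11.5% of calls were unchanged genes. Alternatives were no embryo block, DESeq2 size factors, upper quartile factors, DESeq2 1.42.0, limma-voom (limma 3.58.1), 2 other filters, each embryo left out, GC and length trends removed, and thinning of both teeth of an embryo to 1 total. Promoter windows came from RefSeq (GRCm38.p6), 1 or more per gene, and a gene was counted once if any window held a motif.

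The members, roles, marker lists and the wider list were chosen with earlier results of these data known. Values in every tooth were given for called members that changed the same way in all 5 embryos and for the members highest and lowest in level per length, called members were all named, and of the members not called the 2 with the largest absolute log2 fold change were named. Of the wider list up to 5 called genes in each direction were named. The tooth values of Fbl, Gar1, Bysl and Ncl, and the overlaps of Utp14b and Ruvbl2 with other genes, were added after their values were seen.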

Additional observations from a re-analysis of the deposited data

Results flagged for a closer look

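Each group of 5 teeth was searched for a tooth whose gap to its nearest neighbour took up more of the group's range than Dixon's 95% critical value of 0.71 allows. This was done for 102 groups, of which about 5.1 would pass by chance if the groups were independent, and 8 did. Groups of different genes came from the same teeth and were not independent, so the 2 counts cannot be weighed against each other. The IGF1 tooth of embryo 6 accounted for 4 of the 8, and stood highest for Nop58 (130 CPM, the others 104 to 111), for Ncl (578 CPM, the others 495 to 517) and for Rrn3 (80.9 CPM, the others 59.9 to 63.8). The same tooth stood highest for Wdr75 (74.2 CPM, the others 48.1 to 54.1). The control tooth of embryo 1 stood highest for Gar1 (14.1 CPM, the others 5.91 to 8.23) and lowest for Wdr75 (39.2 CPM, the others 54.9 to 59.7). The control tooth of embryo 2 stood lowest for Rrn3 (52.6 CPM, the others 61.6 to 64.4) and for Ruvbl2 (42.2 CPM, the others 55.0 to 58.6). None of these genes was among the called members, but Ruvbl2 was called higher in the wider list. Its log2 fold change was 0.42 in the reported fit and 0.33 without embryo 2, where the call was lost (adjusted p = 0.0573, edgeR). The cause of the flagged values was not tested.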

How the results depend on the processing

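The number of members called higher was 3 in the reported fit and 0 to 3 when 1 embryo was left out (0 without embryo 1, 2, 4 or 6), 0 without the embryo block, 2 with upper quartile factors (Nop10 lost) and 1 by the DESeq2 Wald test (Nop10 and Nolc1 lost), and 1 member (Gar1) was called lower once GC and length trends were removed. Without embryo 3 the 3 calls were Fbl, Nop10 and Bysl. In the wider list 2 to 5 genes were called higher and 1 to 3 lower when an embryo was left out, and the 5 called lower became 1 without the block, 1 by the DESeq2 Wald test and 8 with GC and length trends removed. Over all genes 986 to 1602 were called with an embryo left out and 887 without the block. The members' median log2 fold change stayed above 0 in all 14 alternatives, from 0.017 (without embryo 6) to 0.13 (without embryo 3). Of 588 member values, 529 kept direction and call, 19 lost a call, 2 gained one and 38 changed sign, none of them from a called member. Values that changed sign ran from -0.087 (Rrp9 with GC and length trends removed) to 0.11 (Polr1b without embryo 3). With all embryos kept they were, without the block, Polr1b at 0.012 and Ebna1bp2 at 0.0022, by upper quartile factors Ubtf at -0.00015, Rrp9 at -0.014, Ltv1 at -0.015 and Noc3l at -0.0097, by limma-voom Ltv1 at -0.0078 and Noc3l at -0.0016, with GC and length trends removed Ubtf at -0.0025, Rrp9 at -0.087, Ltv1 at -0.013 and Grwd1 at -0.067, and after thinning Rrp9 at -0.0074 and Ltv1 at -0.0125. With an embryo left out the ranges that crossed 0 were -0.13 to 0.11 for Polr1b, -0.028 to 0.18 for Dkc1, -0.21 to 0.048 for Polr1c, -0.0081 to 0.054 for Ubtf, -0.093 to 0.011 for Pes1, -0.13 to 0.049 for Wdr12, -0.054 to 0.12 for Wdr75, -0.077 to 0.13 for Rrp9, -0.042 to 0.071 for Ltv1, -0.056 to 0.17 for Nop2, -0.035 to 0.052 for Noc3l, -0.093 to 0.057 for Ebna1bp2, -0.086 to 0.14 for Grwd1 and -0.0405 to 0.17 for Mybbp1a. The cause was not tested. By longest transcript the control level of Npm1 was 422 and that of Rrp9 6.29 CPM per kb, and the 100 bases before the start held CACGTG in 2, CCGGAAGT in 6, GCGCATGC in 1, AAGATGGC in 0 and TATAAA in 0 members. Upper quartile factors moved the median of all genes to -0.028. Gar1 rests on 26 to 58 counts a tooth, which limits its precision.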
